A study of Homo sapiens with 12 samples.

Results

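The mRNAs of 9 enzymes and enzyme subunits of the mitochondrial tricarboxylic acid (TCA) cycle were followed by RNA-seq in PC3 and DU145, which are established human prostate cancer cell lines. The members were taken by name (CS, IDH2, IDH3A, IDH3B, IDH3G, OGDH, SUCLA2, FH and MDH2), and all 9 were found among the 32077 genes of the deposited count table. There were 4 groups of 3 samples, 12 in all, namely PC3 and DU145 cells cultured for 48 hours with vehicle, which was sterile distilled water, or with 2.5 μmol/L pentamidine, a cationic aromatic diamidine. Both lines are given as wild type in the labels, and the study used the treatment to look for the transcriptional changes behind the loss of growth of these cells. RNA with a poly(A) tail was sequenced, and all 9 members are nuclear genes. Total counts ranged from 13514195 to 15131436 per sample, and a member had between 126 and 5204 counts in a sample. The lowest count of a member other than IDH2 was 427. Samples of a group differed by more than sampling noise, the mean chi-square of a gene between replicates being 1.72 to 7.3. The labels do not say that the 3 samples of a group came from separate cultures, so the p-values measure only the spread between these samples.

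The TCA cycle oxidises the acetyl group of acetyl-CoA in the mitochondrial matrix and passes the electrons, as NADH and FADH2, to the respiratory chain. Its intermediates also leave the cycle as building blocks for lipids, amino acids and haem. Citrate made by the cycle is stored and secreted by the normal prostate epithelium, and prostate cancer cells are known to oxidise it instead.

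Some genes that define the lines were not at the levels their labels call for. EPCAM and CDH1, an epithelial adhesion molecule and E-cadherin, had at most 1 count each in the 6 libraries labelled PC3. In the 6 libraries labelled DU145 they had at most 2 and 10 counts. KRT8 and KRT18, keratins of simple epithelia, were detected in both lines, at 16.1 to 21.4 and 144 to 208 CPM (counts relative to the library total, scaled by TMM) in PC3 and at 1817 to 2795 and 685 to 941 CPM in DU145. KLK2 and KLK3, kallikreins of luminal prostate cells, had at most 3 counts in any library. Summed markers of blood cells, endothelium and fibroblasts ranged from 0.0712 to 1.15 CPM in all groups, with the exception of the fibroblast list in DU145, which reached 3.13 CPM through COL1A1. The names PC3 and DU145 therefore stand below for the libraries so labelled.

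In vehicle-treated cells the members fell on a wide range of levels. Levels of different genes were compared as CPM per kilobase of transcript. In PC3 cells the order was led by CS at 117 ± 5.07 and IDH3B at 116 ± 3.74 CPM per kilobase (SD, n = 3), which did not differ beyond their spread. MDH2 followed at 93.3 ± 4.07, IDH3G at 48.5 ± 1.37, FH at 42.2 ± 1.70, OGDH at 35.1 ± 1.57 and SUCLA2 at 17.0 ± 1.70 CPM per kilobase. IDH3A at 10.2 ± 0.364 and IDH2 at 3.65 ± 0.283 CPM per kilobase were the lowest. The samples of neighbouring members in this order overlapped for CS and IDH3B alone. In DU145 cells IDH3B was highest at 133 ± 4.58, ahead of MDH2 at 117 ± 2.57 and CS at 96.1 ± 2.90 CPM per kilobase. IDH3A at 9.98 ± 0.457 and IDH2 at 9.27 ± 0.683 CPM per kilobase stood at the lower end, and in this line their samples overlapped. With the length of all exons of protein-coding transcripts in place of 1 transcript, SUCLA2 fell to 8.78 and IDH3A was at 9.78 CPM per kilobase in vehicle-treated PC3 cells, which exchanges their places, and FH at 42.2 passed IDH3G at 39.5 CPM per kilobase.

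**Figure D1:**
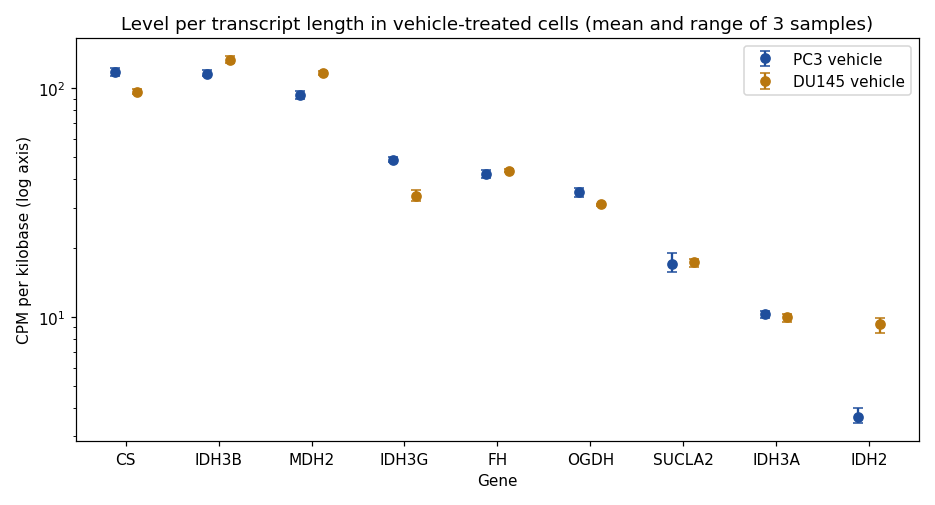
Level of each member in vehicle-treated PC3 and DU145 cells, as CPM per kilobase of transcript on a log axis. Points are means and bars the range of 3 samples, from 117 for CS down to 3.65 for IDH2 in PC3 cells.

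The question of the main comparison was whether pentamidine changed the mRNA of these enzymes. TMM scaling was used, and a gene was called changed at an adjusted p below 0.05, from the quasi-likelihood test of edgeR with the Benjamini-Hochberg method over all genes tested. SE is the standard error of a log2 fold change. All 9 members passed the filter on low counts in every comparison. In PC3 cells 4 members decreased, CS, IDH3A, OGDH and FH, and none increased, while the test called 43.4% of the 13861 genes tested, 21.7% lower and 21.7% higher. In DU145 cells 3 members decreased, IDH3A, OGDH and SUCLA2, and IDH2 and MDH2 increased, against 34% of 14313 genes called, 16.8% lower and 17.2% higher. The vehicle and treated samples did not overlap for 5 members in PC3 and 6 in DU145 cells, as for 52.1% and 44% of all genes tested. The 9 members had a median log2 fold change of -0.17 (PC3) and -0.04 (DU145), beside 0.0046 and 0.0085 over all genes tested. For no member was the log2 fold change larger than 1 in size, a limit which together with the adjusted p was reached by 4.75% of genes in PC3 and 2.03% in DU145. Of the members called, OGDH and IDH3A were lower in both lines, as were 9.62% of the 13125 genes tested in both. In bulk RNA, fewer cells with a transcript and less of it per cell cannot be told apart.

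**Figure D2:**
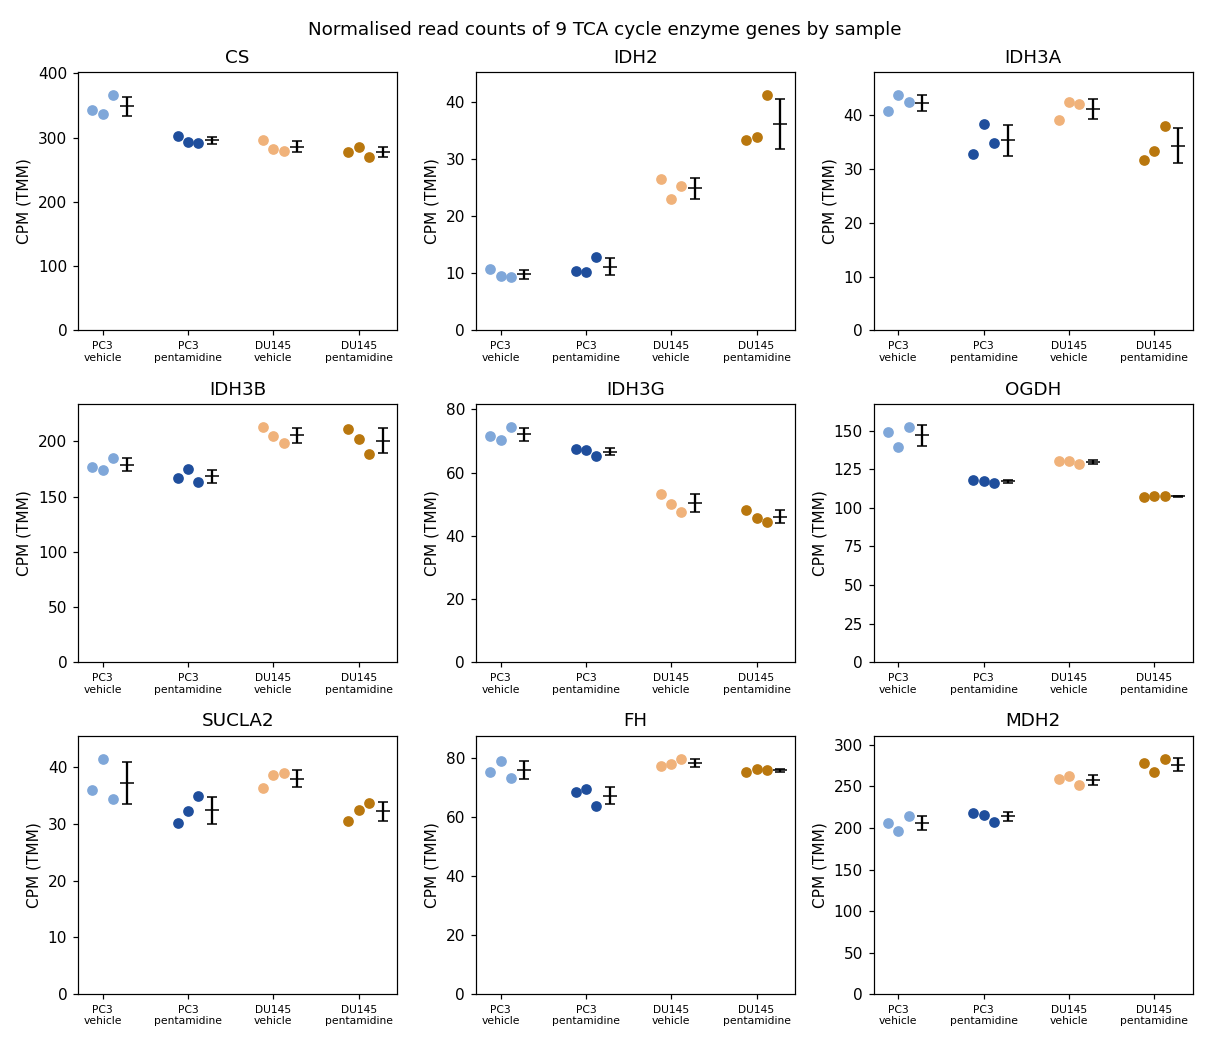
Normalised level (CPM after TMM scaling over the 12 samples) of each of the 9 members in every sample. Points are samples, and the black mark beside them is the mean with its SD (n = 3). OGDH and IDH3A lie below vehicle in both lines, and IDH2 is above vehicle in DU145 without overlap.

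OGDH (chromosome 7, 44606572 to 44709066, plus strand) encodes the E1 component of the α-ketoglutarate dehydrogenase complex, which releases CO2 and commits carbon to the later part of the cycle. Its level was 149, 139.6 and 152 CPM in the vehicle-treated and 118, 117 and 116 CPM in the pentamidine-treated PC3 samples. In DU145 it was 131, 130.1 and 128 CPM with vehicle and 107, 108 and 108 CPM with pentamidine. The treated samples lay below all vehicle samples in each line, and those of DU145 were within 1 CPM of each other. The log2 fold change was -0.32 (edgeR adjusted p = 9.3e-05, SE 0.052) for PC3 and -0.27 for DU145 (edgeR adjusted p = 3.75e-07, SE 0.040).

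SUCLA2 (chromosome 13, 47936491 to 48001354, minus strand) encodes the ADP-specific β subunit of succinyl-CoA synthetase, the enzyme that makes ATP at the substrate level. It had 36.3, 38.7 and 39.0 CPM in vehicle-treated and 30.5, 32.4 and 33.7 CPM in pentamidine-treated DU145 cells, with no overlap, and its log2 fold change was -0.23 (edgeR adjusted p = 0.00465, SE 0.067). In PC3 cells it had 36.0, 41.5 and 34.4 CPM with vehicle and 30.2, 32.2 and 34.9 CPM with pentamidine. Here the groups overlapped in 1 sample of each, and the log2 fold change of -0.20 was not called (edgeR adjusted p = 0.0707, SE 0.085). Without PC3 vehicle replicate 1 or replicate 3 it passed, at -0.23 (edgeR adjusted p = 0.0233) and -0.25 (edgeR adjusted p = 0.0314), as it did with all 12 samples in one fit at -0.20 (edgeR adjusted p = 0.0336).

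The gene CS (chromosome 12, 56271699 to 56300392, minus strand) encodes citrate synthase, which joins acetyl-CoA to oxaloacetate at the entry of the cycle and is widely used as a measure of mitochondrial mass. It had the most counts of the members in every sample but replicates 1 and 3 of pentamidine-treated DU145, where MDH2 had more. It shares 220 bases of exon with AC073896.1 on its own strand and 28 bases with AC073896.2 on the other. PC3 cells had 343, 337 and 366 CPM with vehicle and 302, 294 and 291 CPM with pentamidine, so that every treated sample lay below every vehicle sample. The log2 fold change was -0.23 (edgeR adjusted p = 0.00102, SE 0.049). DU145 cells had 296, 282 and 279.5 CPM with vehicle and 278, 285 and 269.8 CPM with pentamidine, and these samples overlapped (log2 fold change -0.04, edgeR adjusted p = 0.427, SE 0.034).

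FH (chromosome 1, 241497603 to 241519761, minus strand), fumarate hydratase, turns fumarate into malate and is a tumour suppressor of the kidney. In PC3 cells it had 75.3, 79.1 and 73.0 CPM with vehicle and 68.4, 69.3 and 63.8 CPM with pentamidine, without overlap. Its log2 fold change was -0.17 (edgeR adjusted p = 0.0333, SE 0.061), a call that was lost under DESeq2 (adjusted p = 0.0574) and without PC3 vehicle replicate 2 (log2 fold change -0.14, edgeR adjusted p = 0.117), pentamidine replicate 1 (-0.18, edgeR adjusted p = 0.0711) or pentamidine replicate 3 (-0.13, edgeR adjusted p = 0.152). In DU145 cells its level was 77.2, 77.9 and 79.6 CPM with vehicle and 75.2, 76.1 and 75.9 CPM with pentamidine. These groups did not overlap either, but the log2 fold change of -0.04 was not called (edgeR adjusted p = 0.521, SE 0.047).

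MDH2 (chromosome 7, 76048051 to 76067508, plus strand), mitochondrial malate dehydrogenase, closes the cycle by making oxaloacetate and also serves the malate-aspartate shuttle. It had 206, 197 and 215 CPM in vehicle-treated and 218, 216 and 208 CPM in pentamidine-treated PC3 cells, which overlapped (log2 fold change 0.06, edgeR adjusted p = 0.371, SE 0.051). In DU145 cells the 258, 263 and 252 CPM with vehicle lay below the 278, 267 and 283 CPM with pentamidine. This rise was small, with a log2 fold change of 0.10 (edgeR adjusted p = 0.0133, SE 0.034). It was not called without DU145 vehicle replicate 3 (0.09, edgeR adjusted p = 0.0902), without pentamidine replicate 3 (0.08, edgeR adjusted p = 0.1) or with all 12 samples in one fit (0.10, edgeR adjusted p = 0.0835).

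**Figure D3:**
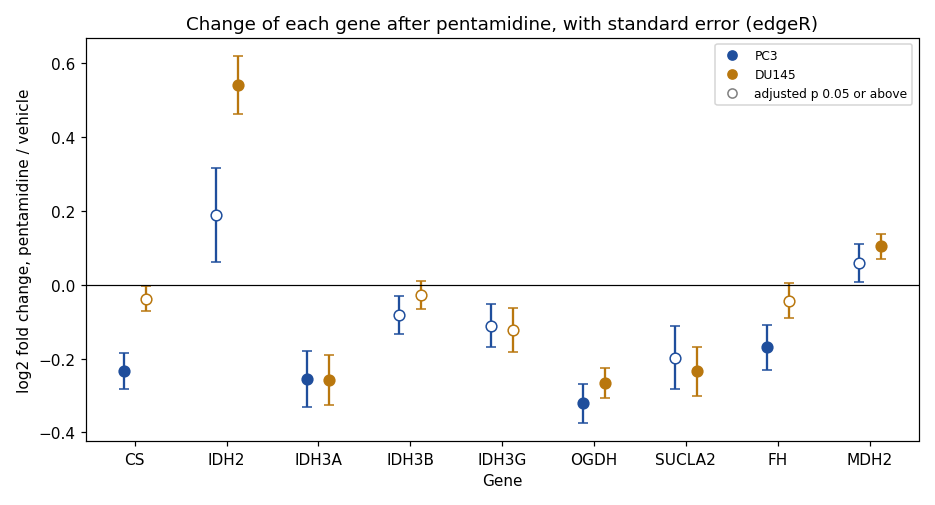
Log2 fold change of each member after pentamidine in PC3 (blue) and DU145 (brown), with its standard error from edgeR. Filled points have an adjusted p below 0.05, and values run from -0.32 for OGDH in PC3 to 0.54 for IDH2 in DU145.

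The oxidation of isocitrate is carried out by separate enzymes. IDH3 is the NAD-dependent enzyme of the cycle, built from the catalytic α subunit (IDH3A) with the β (IDH3B) and γ (IDH3G) subunits. IDH2 is the NADP-dependent mitochondrial enzyme, which also supplies NADPH and can run in reverse. RefSeq promoter windows, 250 bases before to 50 bases after the RefSeq start, were found for 8 of the 9 members. For 7 of them this start lay within 148 bases of the start of the principal transcript in GENCODE 29. The window of IDH2 was 1883 bases inside the gene and is not used. The windows of the IDH3 genes are shown because they encode the subunits of one enzyme. They are chr15:78149112-78149411 (plus strand) for IDH3A, chr20:2664167-2664466 (minus strand) for IDH3B and chrX:153794326-153794625 (minus strand) for IDH3G, on GRCh38.p14. The gene coordinates of IDH3A begin 17864 bases upstream of its RefSeq start, which is 41 bases from that of its principal transcript. Capitals mark the letters CCGGAAG of ETS factors and GGGCGG, the GC box, on either strand.
IDH3A: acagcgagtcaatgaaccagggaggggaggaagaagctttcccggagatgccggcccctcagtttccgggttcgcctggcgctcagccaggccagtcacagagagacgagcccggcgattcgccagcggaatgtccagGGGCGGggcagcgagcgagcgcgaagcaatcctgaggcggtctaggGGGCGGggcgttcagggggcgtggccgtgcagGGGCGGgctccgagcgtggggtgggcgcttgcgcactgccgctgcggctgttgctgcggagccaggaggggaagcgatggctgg
IDH3B: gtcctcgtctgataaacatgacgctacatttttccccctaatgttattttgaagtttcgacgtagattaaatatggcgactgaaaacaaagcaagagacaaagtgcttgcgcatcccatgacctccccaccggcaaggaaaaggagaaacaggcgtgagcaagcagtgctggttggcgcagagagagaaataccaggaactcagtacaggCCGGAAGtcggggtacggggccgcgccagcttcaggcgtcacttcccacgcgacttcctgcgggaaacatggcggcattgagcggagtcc
IDH3G: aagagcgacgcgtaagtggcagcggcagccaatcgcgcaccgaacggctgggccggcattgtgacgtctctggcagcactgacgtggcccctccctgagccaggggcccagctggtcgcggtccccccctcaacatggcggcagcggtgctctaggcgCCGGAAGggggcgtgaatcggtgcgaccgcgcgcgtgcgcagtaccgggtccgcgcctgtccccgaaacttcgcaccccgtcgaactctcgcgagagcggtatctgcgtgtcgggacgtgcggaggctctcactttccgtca
IDH3A held 3 GC boxes and no ETS match, and IDH3B and IDH3G held 1 ETS match each and no GC box. Over the 7 windows, ETS letters were in 3 and a GC box in 4, while 10.3% and 45% of all 35116 windows of this length held them. The letters CCAAT, the CCAAT box, were in 4 of the 7 on either strand, IDH3G among them, beside 34.6% of all windows. They are not marked by capitals. The letters GCGCATGC (NRF1), TGATGNAA (ATF4) and CACGTG (E-box), which 3.05%, 3.62% and 7.26% of all windows held on either strand, were in none of the 7. A match is a description of the letters only.

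IDH3A (chromosome 15, 78131498 to 78171949, plus strand) had 40.7, 43.7 and 42.5 CPM in vehicle-treated and 32.8, 38.4 and 34.9 CPM in pentamidine-treated PC3 cells. In DU145 cells the level was 39.0, 42.4 and 42.1 CPM with vehicle and 31.7, 33.4 and 37.9 CPM with pentamidine. All treated samples were below the vehicle samples of their line. The log2 fold change was -0.25 (edgeR adjusted p = 0.0119, SE 0.076) for PC3 and -0.26 for DU145 (edgeR adjusted p = 0.00205, SE 0.067). The call in PC3 cells was lost without PC3 pentamidine replicate 1 (-0.20, edgeR adjusted p = 0.0808). IDH3A shares exon sequence with ACSBG1 (2608 bases, 1 to 5 counts per sample) and CIB2 (47 bases, 80 to 487 counts) on the other strand, and since the strand setting of the counting is not stated, reads there cannot be told apart.

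IDH3B (chromosome 20, 2658395 to 2664219, minus strand) was not called in either line. Its level was 177, 174 and 185 CPM with vehicle and 167, 175 and 164 CPM with pentamidine in PC3 cells, a log2 fold change of -0.08 (edgeR adjusted p = 0.216, SE 0.051). DU145 cells had 213, 205 and 199 CPM with vehicle and 212, 202 and 188 CPM with pentamidine, a log2 fold change of -0.03 (edgeR adjusted p = 0.606, SE 0.038). The samples overlapped in both lines. IDH3G (chromosome X, 153785766 to 153794523, minus strand) had 71.5, 70.4 and 74.3 CPM with vehicle and 67.3, 67.0 and 65.3 CPM with pentamidine in PC3 cells. In DU145 cells it had 53.2, 50.1 and 47.7 CPM against 48.2, 45.6 and 44.4 CPM. The PC3 groups did not overlap and the DU145 groups did, and neither log2 fold change, -0.11 (edgeR adjusted p = 0.137, SE 0.058) and -0.12 (edgeR adjusted p = 0.105, SE 0.059), was called. IDH3G shares 278 bases of exon with SSR4 on the other strand.

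IDH2 (chromosome 15, 90083045 to 90102504, minus strand) had the fewest counts of the members in every group but pentamidine-treated DU145, and was the one that differed most between the lines. It had 10.7, 9.53 and 9.29 CPM in vehicle-treated and 10.3, 10.3 and 12.9 CPM in pentamidine-treated PC3 cells, which overlapped (log2 fold change 0.19, edgeR adjusted p = 0.251, SE 0.13). In DU145 cells it rose from 26.6, 23.0 and 25.3 CPM to 33.5, 33.9 and 41.2 CPM. Pentamidine replicate 3 was the highest in each line. The log2 fold change in DU145 cells was 0.54, or 1.46-fold (edgeR adjusted p = 1.27e-07, SE 0.078), the largest change of any member in either line, and was between 0.43 and 0.59 with each DU145 sample left out.

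Ratios of counts within a library do not depend on the scaling between libraries, and were compared by an exact two-sided permutation test, which cannot go below p = 0.1 with 3 samples against 3. The log2 ratio of IDH2 to IDH3A counts was -2.10 ± 0.156 with vehicle and -1.66 ± 0.232 with pentamidine in PC3, and -0.72 ± 0.167 and 0.07 ± 0.0508 in DU145 (SD, n = 3). In each line the treated samples were all above the vehicle samples (p = 0.1 in both, exact permutation test). In treated DU145 cells the counts of IDH2 thus reached those of IDH3A, at log2 ratios of 0.08, 0.02 and 0.12. These counts are not scaled by transcript length, which is 2694 bases for IDH2 and 4128 bases for IDH3A. Per kilobase, IDH2 and IDH3A were at 9.27 and 9.98 CPM in vehicle-treated DU145 cells, with overlap. With pentamidine they were at 13.4 and 8.32 CPM per kilobase, without overlap. The log2 ratio of IDH3A to IDH3B changed by -0.17 in PC3 cells without overlap (p = 0.1, exact permutation test) and by -0.23 in DU145 cells with overlap (p = 0.2, exact permutation test). That of IDH3A to IDH3G changed by -0.15 and -0.14, with overlap in both lines (p = 0.3 and 0.4, exact permutation tests). The ratio of IDH3G to IDH3B changed by -0.03 in PC3 cells (p = 0.3, exact permutation test) and by -0.09 in DU145 cells without overlap (p = 0.1, exact permutation test).

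**Figure D4:**
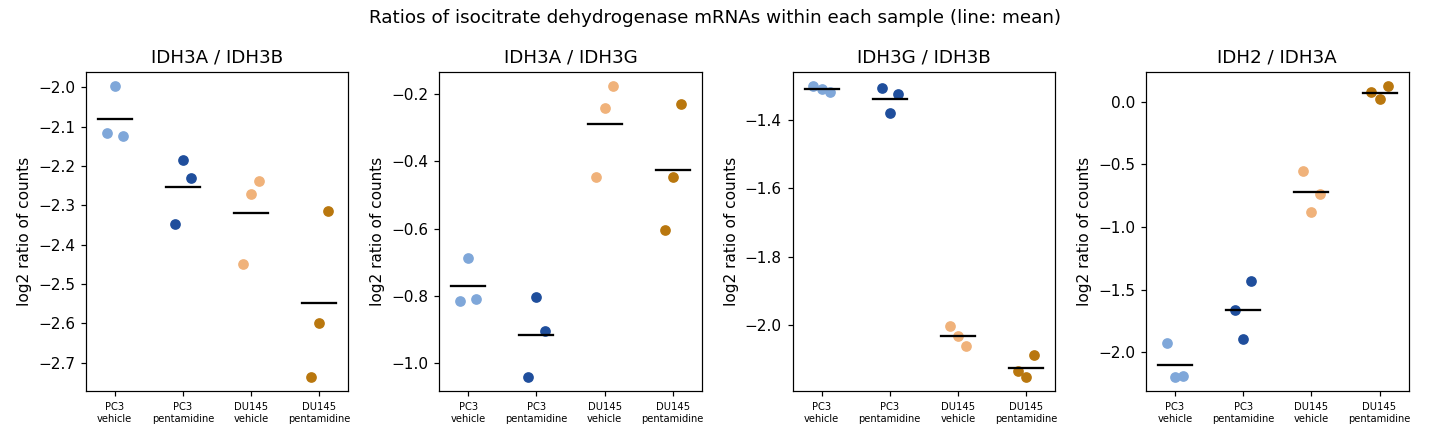
Log2 ratios of the counts of the isocitrate dehydrogenase genes within each sample, in 4 panels with the 4 groups side by side. Points are samples and lines are means (n = 3). The IDH2 to IDH3A ratio rises without overlap in both lines and reaches 0.07 in treated DU145 cells.

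Together, the 9 members took 0.113% ± 0.00226 of all counts in vehicle-treated and 0.101% ± 0.00159 in pentamidine-treated PC3 cells, without overlap (SD, n = 3, p = 0.1, exact permutation test). In DU145 cells their share was 0.108% ± 0.00169 and 0.1098% ± 0.00037, with overlap (p = 0.3, exact permutation test). The 13 mitochondria-encoded mRNAs moved in the same libraries, with 3.42% ± 0.0723 of all counts under vehicle and 0.248% ± 0.00734 under pentamidine in PC3, and 3.93% ± 0.11 and 0.209% ± 0.00416 in DU145. Their part in the change of the members was not tested. All mitochondria-encoded genes, not only these 13 mRNAs, were also taken out of the total. The difference of the share was then -0.0137 percentage points in PC3 cells and turned from 0.00164 to -0.00125 in DU145 cells.

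The difference in response between the lines was tested as an interaction over all 12 samples. It was called for 1 of the 9 members, against 20.4% of the 15226 genes tested, and for none past 1 in size, as 2.62% of genes were. CS changed less in DU145 than in PC3 cells, with a difference of -0.20 in log2 fold change (PC3 minus DU145, edgeR adjusted p = 0.0179, SE 0.059). This call was lost without PC3 vehicle replicate 3 (-0.15, edgeR adjusted p = 0.0534), DU145 vehicle replicate 2 (-0.18, edgeR adjusted p = 0.0637), DU145 vehicle replicate 3 (-0.17, edgeR adjusted p = 0.0758) or DU145 pentamidine replicate 2 (-0.18, edgeR adjusted p = 0.0637). For IDH2 the difference was -0.35 and not called (edgeR adjusted p = 0.112, SE 0.15), but it passed without PC3 pentamidine replicate 3 at -0.47 (edgeR adjusted p = 0.0402). The other differences were between -0.13 for FH and 0.04 for SUCLA2, with standard errors of 0.060 to 0.11. OGDH differed by -0.06 (standard error 0.062) and IDH3A by 0.0026 (standard error 0.10), so that differences of this order could not be resolved. All 9 members had a fold change of the same sign in both lines, 2 above and 7 below 0. The share of all genes with the same sign is not given here. In DU145 the values of CS, IDH3B and FH were close to 0 and changed sign with library size alone in place of TMM.

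The lines were also compared under vehicle. Of the 9 members 6 were called between vehicle-treated PC3 and DU145 cells, 3 higher and 3 lower in PC3, against 65.3% of the 14394 genes tested, 31.5% higher and 33.8% lower. IDH2 was lower in PC3 by a log2 difference of -1.37 (edgeR adjusted p = 5.83e-09, SE 0.10) and was the only member past 1 in size, as were 19.2% of genes. MDH2 at -0.35 and IDH3B at -0.23 were also lower in PC3, while IDH3G at 0.49, CS at 0.26 and OGDH at 0.16 were higher (adjusted p at most 0.0114, edgeR). The samples of the lines did not overlap for these 6 members, as for 69.1% of all genes tested. The value of OGDH was not called without DU145 vehicle replicate 3 (0.15, edgeR adjusted p = 0.0526). IDH3A, SUCLA2 and FH had log2 differences of 0.01, -0.05 and -0.07 with overlapping samples.

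The remaining genes of the pathway were counted in 4 lists of 45 genes in all. The counts called in each list stand beside 43.4% of all genes tested in PC3 and 34% in DU145 cells. The lists were chosen with earlier results of these data known, so these counts are descriptions only. Of the rest of the mitochondrial cycle (aconitase, the other α-ketoglutarate dehydrogenase and succinyl-CoA synthetase subunits, succinate dehydrogenase and OGDHL), 3 of the 9 genes tested decreased and none increased in PC3 cells. In DU145 cells 1 of 10 decreased and 2 increased. SDHA, the flavoprotein subunit of succinate dehydrogenase, fell in both lines, at -0.50 in PC3 (edgeR adjusted p = 3.86e-07) and -0.46 in DU145 (edgeR adjusted p = 9.18e-18), and has expressed pseudogene copies that can share its reads. SDHD, a membrane anchor of the same complex, fell by 0.46 on the log2 scale in PC3 cells (edgeR adjusted p = 0.00014). OGDHL, a relative of OGDH, rose in DU145 cells with a log2 fold change of 1.08 (edgeR adjusted p = 0.000119) and did not pass the filter in PC3 cells. The medians of this list were -0.06 and 0.0032.

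Of the genes of pyruvate entry, which feed acetyl-CoA to CS, 1 of 11 increased and 4 decreased in each line, with medians of -0.12 in PC3 and -0.07 in DU145 cells. PDK3, a kinase that inhibits pyruvate dehydrogenase, fell by 0.69 on the log2 scale (edgeR adjusted p = 0.0071), and PDP1, a phosphatase that activates it, rose by 0.56, both in PC3 cells (edgeR adjusted p = 1.14e-05). In DU145 cells the largest of the called decreases were those of PDK1 at -0.34 (edgeR adjusted p = 0.000786) and PDP2 at -0.32 (edgeR adjusted p = 0.000101). Of the 4 lists, that of genes that supply or withdraw cycle intermediates held the largest increase in each line, that of PCK2. In PC3 cells 2 of 11 increased and 4 decreased, and in DU145 cells 3 increased and 4 decreased. PCK2, the mitochondrial enzyme that makes phosphoenolpyruvate from oxaloacetate, rose by a log2 value of 3.02 in PC3 (edgeR adjusted p = 1.68e-16) and 2.06 in DU145 (edgeR adjusted p = 3.96e-33). GPT2, which exchanges glutamate and pyruvate for α-ketoglutarate and alanine, rose by 1.64 (edgeR adjusted p = 2.78e-13) and 0.95 (edgeR adjusted p = 8.67e-20). The medians of this list were -0.10 and 0.05.

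Of the cytosolic counterparts and carriers, 5 of 11 increased and 4 decreased in PC3 cells, and 1 increased and 4 decreased in DU145 cells, with medians of 0.07 and -0.02. GOT1, the cytosolic aspartate aminotransferase, rose in both lines, with log2 fold changes of 1.23 (edgeR adjusted p = 6.52e-12) and 0.52 (edgeR adjusted p = 4.98e-13). SLC25A10, the dicarboxylate carrier, had -0.70 in PC3 cells with overlapping samples (edgeR adjusted p = 0.016), and ACO1, cytosolic aconitase, -0.43 in DU145 cells (edgeR adjusted p = 6.38e-11).

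**Figure D5:**
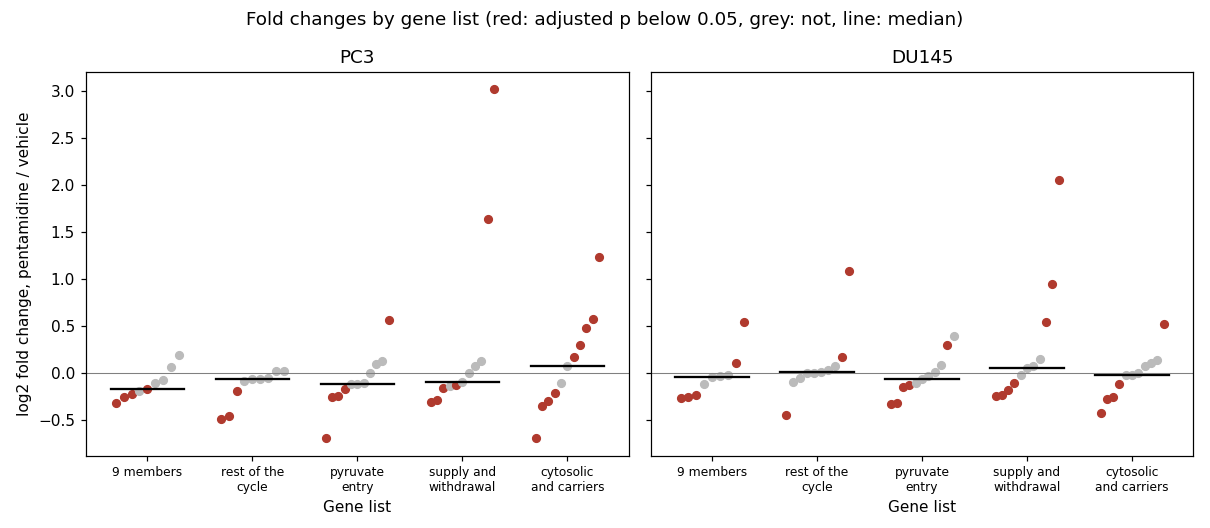
Log2 fold changes after pentamidine for the 9 members and the 4 other lists in PC3 (left) and DU145 (right). Each point is a gene, red where the adjusted p was below 0.05, and lines are medians. The members stay between -0.32 and 0.54, while PCK2 reaches 3.02 in PC3.

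Patterns over the 12 samples were compared by the root mean square (RMS) difference of log2 CPM, each gene centred on its own mean, among 14392 genes, where a smaller value is a closer pattern. The libraries of a group share their line and treatment, so the 12 points are not independent. The closest other member of IDH3A was SUCLA2 and the reverse, at 0.0839, and that of CS was OGDH and the reverse, at 0.0926. IDH3B and FH were also closest to each other, at 0.0922, which is no smaller than the spread of FH around its own mean (0.0918). IDH2 had no close member, with MDH2 nearest at 0.621. Among all other genes the closest were LRRC14 for CS, EDRF1 for IDH3A, HENMT1 for IDH3B, PIGS for IDH3G, ATAD3B for OGDH, B4GALT4 for SUCLA2, AURKA for FH, GLB1 for MDH2 and FAT4 for IDH2. Their RMS differences were between 0.0359 for ATAD3B and 0.102 for FAT4.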

How the data were processed

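Poly(A)-selected RNA of 12 samples was sequenced as paired-end reads. The authors aligned them with HISAT2 2.1.0 to GRCh38 and deposited whole-number read counts per gene, without normalization. The counting program, its annotation and its strand setting are not given in the sources used here. The deposited table named for FPKM, which holds the same counts scaled to one library total, and the authors' own comparisons (log2 fold changes and p-values from DESeq 1.18.1) were not used.

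Of 33595 entries with an Ensembl identifier, entries with the same name and counts were merged, which left 32077 genes. Rows without an identifier (44) are blank. Genes were filtered with filterByExpr at a minimum count of 10, normalized by TMM and tested with edgeR 4.0.16 (R 4.3.3, quasi-likelihood, Benjamini-Hochberg adjustment), per line (6 samples), between vehicle groups (6 samples) and as an interaction (12 samples). The standard error is the log2 fold change divided by the root of the F statistic. CPM use TMM over all 12 samples, and lengths are those of the longest principal transcript in GENCODE release 29. Alternatives were DESeq2 1.42.0, RLE normalization, library size alone, TMM without mitochondria-encoded genes, no filter, limma 3.58.1 on log2(CPM + 1), the replicate number as a block, all 12 samples in one fit, stricter thresholds and each sample left out. The test was run on simulated counts beforehand. The members, lists and rules were chosen with earlier results of these data known. Named genes are the 9 members, the 2 called genes of each other list with the largest change per line, and the genes closest in pattern, besides those said to be picked after their values were seen. TMPRSS2 and CD3E, on the lists of markers, were not analysed here, and some further markers and overlapping genes are not reported here.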

Additional observations from a re-analysis of the deposited data

Results flagged for a closer look

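The response of CS to pentamidine differed between the lines by a test of the difference itself, the interaction of treatment and cell line over 12 samples. Its log2 fold change was -0.23 in PC3 and -0.04 in DU145 cells, a difference of -0.20 (adjusted p = 0.0179, edgeR's quasi-likelihood test). Every treated PC3 sample lay below every vehicle sample, and the DU145 samples overlapped. With each of the 12 samples left out the difference stayed between -0.21 and -0.15, and the call was lost in 4 of these 12 fits.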

How the results depend on the processing

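Of 621 values of single members under the alternatives, 551 kept their direction and side of the threshold, 33 lost their call, 5 gained one and 32 changed sign. The 621 include the main fits judged at the stricter thresholds. There the fold change is not recomputed, and a call can only be kept or lost. With a log2 fold change above 1 also required, the members called fell to 0 in PC3, 0 in DU145, 0 in the interaction and 1 between the vehicle groups, and at an adjusted p below 0.01 to 2 in PC3 and 0 in the interaction, by construction. limma called 2 in the interaction. With each sample left out the counts were 2 to 5 in PC3 (2 without pentamidine replicate 1), 4 to 5 in DU145, 0 to 2 in the interaction and 5 to 6 between vehicle groups. With library size alone and with limma the median of the members was -0.1208 and -0.1191 in the interaction and 0.02897 and 0.02269 between vehicle groups, where it ranged from -0.094 to 0.01484 (without PC3 vehicle replicate 3) with samples left out. The following values close to 0 changed sign, in that order of settings: in DU145 CS (0.01268, 0.01201), IDH3B (0.02128, 0.01969) and FH (0.007408, 0.007312); in the interaction IDH3A (-0.06596, -0.06261), IDH3G (-0.05605, -0.05588) and SUCLA2 (-0.03205, -0.02593); between vehicle groups SUCLA2 (0.02897, 0.02269) and FH (0.009731, 0.008359). With samples left out IDH3B ranged from -0.07057 to 0.01049 in DU145, IDH3A ranged from -0.05809 to 0.07975 in the interaction, IDH3G ranged from -0.02039 to 0.05806 in the interaction, SUCLA2 ranged from -0.02005 to 0.127 in the interaction, IDH3A ranged from -0.02553 to 0.05161 between vehicle groups and SUCLA2 ranged from -0.1279 to 0.01484 between vehicle groups. The share of the members in DU145 turned to -0.001254 without mitochondria-encoded genes. The cause of these changes was not tested.

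Same-numbered samples did not deviate together (correlations of -0.0733 to 0.0388), so the replicate numbers were not taken as pairs. With the replicate number as a block the members called were 4, 5, 1 and 6, and all genes called went from 6010 to 5599 in PC3, 4860 to 4794 in DU145, 3112 to 2803 in the interaction and 9405 to 9430 between vehicle groups. At 126 counts or more per sample, IDH2 was measured least precisely, with an SE of 0.13 in PC3.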

Other observations

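Several cytosolic enzymes of the same intermediates differed in response between the lines. Of the 11 genes tested in the list of cytosolic counterparts and carriers, 7 were called in the interaction, 5 of them with the higher response in PC3, beside 20.4% of all genes tested. The list was chosen with earlier results of these data known, so its count describes these genes and is no test of the class. The following genes were picked after their values were seen. IDH1, the cytosolic NADP-dependent isocitrate dehydrogenase, changed by a log2 value of 0.48 in PC3 and -0.02 in DU145, a difference of 0.50. ME1, cytosolic malic enzyme, had 0.57 and -0.03, a difference of 0.60, and ACLY, which splits citrate into acetyl-CoA in the cytosol, had 0.30 and -0.12, a difference of 0.42. ACO1 had 0.07 and -0.43, a difference of 0.50. For all 4 the adjusted p of the difference was below 0.05 (edgeR's quasi-likelihood test).

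Between the vehicle-treated lines, the rest of the mitochondrial cycle differed widely. Of its 10 genes, 9 were called, 4 higher and 5 lower in PC3, beside 65.3% of all genes tested. This list too was chosen with earlier results known. OGDHL had 0 to 2 counts in PC3 and 22 to 32 in DU145 samples. Of the other genes, also picked after their values were seen, the largest differences were those of SDHA at -2.11 and SUCLG2, the GDP-specific β subunit of succinyl-CoA synthetase, at -1.33 on the log2 scale, both lower in PC3. The pseudogene copies of SDHA can share its reads here too, and their part in its value was not tested. The other subunits of succinate dehydrogenase had 0.15 (SDHB), -0.27 (SDHC) and 0.75 (SDHD).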
